A study of Oryza sativa with 32 samples.

Results

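The genes described here are 3 rice ammonium transporters, AMT1 (LOC4336365, also OsAMT1;1), AMT1-2 (LOC4330008, OsAMT1;2) and AMT2-1 (LOC4339064, OsAMT2;1). They were chosen by name, as every probe set whose gene carries one of these 3 names as symbol or synonym. This gave 4 of the 57194 probe sets on the array that are not controls, and 3 of the 17905 genes with a probe set of their own. AMT1 has a main probe set and a second, dim one, and AMT1-2 and AMT2-1 have 1 each. Another gene, LOC4330007 (OsAMT1;3), shares the synonym AMT1-2, and the annotation lists 0 probe sets for it. It is the direct neighbour of LOC4330008, with 0 protein-coding genes between them in the RefSeq gene table of assembly ASM3414082v1. Whether the AMT1-2 probe set also detects OsAMT1;3 transcripts was not tested. That table was used for gene order and names only.

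Ammonium transporters of the AMT family are membrane proteins that carry ammonium into plant cells. In rice, a plant adapted to flooded soils where ammonium is the main form of nitrogen, the AMT1 type is known for high-affinity uptake. OsAMT1;1 is known from root and shoot, OsAMT1;2 from root, and AMT2 proteins form a separate branch of the family. Ammonium that enters a cell is fixed into glutamine by glutamine synthetase and passed on to glutamate by glutamate synthase.

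RNA was taken at the stage of maximum tillering, at mid-day, from root and from shoot of hydroponic plants fed 5 mM ammonium. The control was wild type Nipponbare, a japonica cultivar. Against it stood AGR1/7, then AGR1/8, and also AGR3/8, which the labels call independent. These 3 lines over-express OsANT1:HvAlaAT, the barley enzyme alanine aminotransferase placed behind the rice OsANT1 promoter, which the labels describe as root-specific. All groups, wild type included, grew on ammonium, so there was no group on another nitrogen source. Each of the 8 groups had 4 arrays from replicates that the labels call biological. The labels do not say how many plants went into each RNA. Values are deposited intensities on a linear scale, and an intensity is compared here only with other intensities of the same probe set.

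The labelled tissues matched their markers. The summed intensity of 7 probe sets of photosynthesis genes (RBCS, CAB2R, PORB) lay between 293.7 and 863.4 on root arrays and between 29004 and 64247 on shoot arrays. The summed intensity of 4 root marker probe sets (the silicon transporters Lsi1 and Lsi2, the potassium transporter HAK1) lay between 10114 and 16145 on root arrays and between 717.8 and 1800.5 on shoot arrays. Lsi1 and Lsi2 did not overlap between the tissues, but both HAK1 sets did. These read 376.3 to 1037.4 and 880.8 to 1974.1 in root, against 134.8 to 427.2 and 350.1 to 1128.0 in shoot. A pair of root arrays stood apart, WT replicate 1 and AGR1/7 replicate 1. Their mean correlation with the other arrays of their group was 0.937 and 0.961, against a root median of 0.978. Root WT replicate 3, at 0.962, was close to the second of these. With all other root arrays their mean correlation was 0.924 and 0.950, and the next lowest root array had 0.9637. WT replicate 1 and AGR1/7 replicate 1 had the lowest array weights in root (0.194 and 0.301). Root WT replicate 1 also had the lowest summed root marker intensity, 10114.3, while AGR1/7 replicate 1 had 14439.3. The 3′ to 5′ intensity ratio of GAPDH, a sign of RNA quality, was 17.3 and 3.04 on these 2 arrays, and the other root arrays gave 2.43 to 57.0. The same ratio of actin was 5.01 and 5.08 on them, within the 4.41 to 6.13 of the other root arrays. Values without them stand beside the root comparisons of the 3 genes.

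AMT1-2 was a root transcript in every genotype. Mean intensity in wild type was 1736.3 ± 1147.7 (SD, n = 4) in root and 24.8 ± 6.96 in shoot. The lowest root array still read 11.9 times the highest shoot array in wild type and 69.5 times in AGR3/8. In no genotype did the tissues overlap. The shoot readings are not shown to lie above the array's background, so the size of these ratios depends on that background.

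On the log2 scale, where 16 is added to each intensity, root exceeded shoot by 5.09 ± 0.40 (SE) in wild type, 5.13 in AGR1/7, 5.94 in AGR1/8 and 5.97 in AGR3/8. With shoot that dim, these sizes depend on the added constant. Without both low root arrays they were 5.68 in wild type and 5.66 in AGR1/7. All 4 differences passed limma's test at a Benjamini-Hochberg threshold of 0.05, with adjusted p from 3.8e-14 to 1.8e-12. Passing was common in these comparisons: the share of all 38129 probe sets called was 59.2% in wild type, 58.9% in AGR1/7, 58.2% in AGR1/8 and 58.9% in AGR3/8. Of the 4 ammonium transporter probe sets, 3 were called in each genotype, a share not far from that background, and nothing is read from the count. In tissue extracts, a lower level from fewer cells that carry a transcript and one from less transcript per cell cannot be told apart.

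In root, AMT1-2 read 379.5, 2912.5, 1230.4 and 2422.9 on the 4 wild type arrays. AGR1/7 gave 401.2, 1848.8, 1894.4 and 1708.0. AGR1/8 gave 2346.3, 3474.6, 2600.1 and 2384.6, and AGR3/8 gave 2926.9, 2740.5, 2709.1 and 2656.3. The arrays of AGR1/8 and AGR3/8 were all high and close together, wild type was spread over nearly the whole range, and AGR1/7 had 1 array far below its other 3. Each line overlapped wild type.

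**Figure D1:**
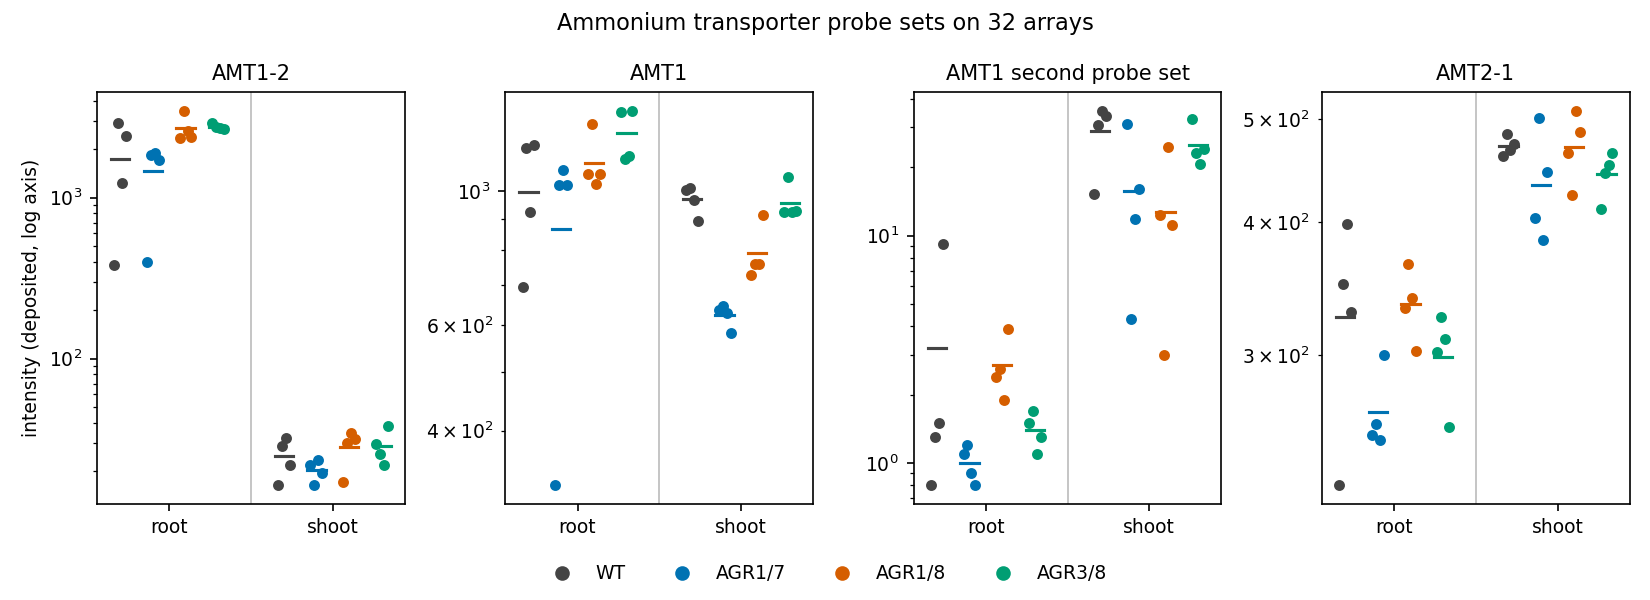
Intensity of the 4 probe sets (log axis, deposited linear units) on each of the 32 arrays, in root (left side of each panel) and shoot (right side), coloured by genotype, with a bar at the group mean of 4 arrays. AMT1-2 is high in root and near 16.4 to 38.2 in shoot, AMT2-1 is higher in shoot, and AMT1 in shoot is lowest in AGR1/7 at 582.7 to 645.3.

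The group means of AMT1-2 in root were 1463.1 ± 712.4 in AGR1/7, 2701.4 ± 527.4 in AGR1/8 and 2758.2 ± 117.7 in AGR3/8 (SD, n = 4). Against wild type, AGR1/8 differed by 0.97 log2 (95% interval -0.14 to 2.08, adjusted p = 0.403). AGR3/8 differed by 1.02 (-0.095 to 2.13, adjusted p = 0.247) and AGR1/7 by -0.11 (-1.23 to 1.00, adjusted p = 0.934). None of these passed the test, and every interval includes 0. The average of the 3 lines, called the transgenic mean below, differed from wild type by 0.62 ± 0.43 (SE), adjusted p = 0.406. Of the 12 transgenic arrays, 11 were above the wild type mean of log2 values. That mean includes the low wild type replicate 1, at 379.5, and the count was not made without it. The F test of differences among the lines gave an adjusted p of 0.375.

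The size of these differences in AMT1-2 moved with the low arrays. Without wild type replicate 1 the transgenic mean stood at 0.027 log2 above wild type (adjusted p = 0.984), AGR1/8 at 0.37, AGR3/8 at 0.42 and AGR1/7 at -0.71. AGR1/7 turned to 0.42 without its own replicate 1. Without both low arrays AGR1/7 differed by -0.18 and the transgenic mean by 0.20 (adjusted p = 0.799 and 0.626), and no line was called in any of these fits. The part of RNA quality or of tissue sampling in the 2 low values was not tested.

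In shoot, AMT1-2 read 16.4, 28.8, 31.9 and 21.9 in wild type. The 12 transgenic arrays ran from 16.5 to 38.2, so each line overlapped wild type. These readings are close to the constant of 16 added before taking logs, and between 47.6% and 52.3% of the probe sets on each shoot array were below that constant. The line differences were -0.16 in AGR1/7, 0.12 in AGR1/8 and 0.14 in AGR3/8, and none passed the test (adjusted p from 0.782 to 0.848).

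AMT1 had a different tissue pattern: in wild type its main probe set read at a like level in root and shoot. The wild type means were 998.1 ± 238.2 in root and 970.0 ± 55.9 in shoot (SD, n = 4). Root minus shoot was 0.0096 log2 in wild type, 0.32 in AGR1/7, 0.49 in AGR1/8 and 0.37 in AGR3/8, and none of the 4 passed the test (adjusted p = 0.974, 0.209, 0.0543 and 0.143). The root and shoot arrays overlapped in wild type and AGR1/7. In AGR1/8 and AGR3/8 every root array was above every shoot array. In wild type the difference was 0.17 (adjusted p = 0.139) without both low root arrays. In AGR1/7 it became 0.73 (adjusted p = 1e-05) without the low root array, replicate 1.

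In shoot, AMT1 read 1005.8, 1014.9, 967.3 and 892.0 in wild type. AGR1/7 gave 635.9, 645.3, 627.5 and 582.7. All 4 arrays of that line lay well below the lowest wild type array. The mean of AGR1/7, 622.9 ± 27.7, was 35.8% lower than the wild type mean. AMT1 thus fell by 0.63 ± 0.084 log2 (SE; 95% interval -0.80 to -0.45; adjusted p = 0.00053), where 1.6% of all probe sets were called.

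AGR1/8 gave shoot values of 725.4, 757.0, 758.6 and 914.2 for AMT1, with 3 arrays below wild type and 1 within its range. Its mean of 788.8 ± 85.0 was 18.7% lower than wild type, a difference of -0.30 log2 (95% interval -0.47 to -0.12) that missed the threshold (adjusted p = 0.0859). The background there was 1.82%. With quantile normalization in place of the deposited scaling it passed (adjusted p = 0.039).

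AGR3/8 gave 923.3, 1056.4, 925.0 and 927.7. These lay within or just above the wild type range, and the difference was -0.018 (95% interval -0.20 to 0.16, adjusted p = 0.954). In AGR3/8 shoot 0.868% of all probe sets were called. The lines differed from each other in AMT1 by the F test (adjusted p = 0.00295; from 0.00088 to 0.0135 on leaving out each array in turn), where 2.26% of all probe sets passed. By mean intensity in shoot the order was AGR1/7, AGR1/8, AGR3/8 and wild type, from low to high. AGR1/7 did not overlap AGR1/8 in that order, while AGR3/8 and wild type did not separate.

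The transgenic mean of AMT1 in shoot fell by 0.31 ± 0.069 log2 (SE; adjusted p = 0.0262), with 11 of 12 transgenic arrays below the wild type mean, against 1.57% of all probe sets called. That average joins a line with a clear difference and a line with almost none. It lost the call without wild type replicate 1, 2 or 3 (adjusted p = 0.087, 0.108 and 0.0902) and with the line as a random unit (0.527). In a single fit of all 32 arrays, where root and shoot share an estimate of the spread, the transgenic mean (adjusted p = 0.482), AGR1/7 (0.176) and the F test among lines (0.236) did not pass. In the fit of the shoot arrays alone, the AGR1/7 call held on leaving out each of its 8 arrays in turn (adjusted p from 0.00102 to 0.00352).

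Of the 7 photosynthesis probe sets, 0 were called in AGR1/7 shoot, where 1.6% of all probe sets were, so nothing is read from the count. Their median change was 0.18 log2, beside 0.023 over all probe sets. The GAPDH 3′ to 5′ ratio ran from 2.1 to 19.8 in AGR1/7 shoot and from 1.52 to 27.2 in wild type shoot, so the groups overlapped in this sign of RNA quality. The same ratio of actin was 6.28, 9.38, 7.44 and 6.95 in AGR1/7 shoot and 6.14, 5.64, 6.20 and 6.89 in wild type shoot. Of the 4 AGR1/7 arrays, 3 were above every wild type array in the actin ratio. High ratios were not particular to this line. The actin ratio was 5.32, 5.57, 7.47 and 7.03 in AGR1/8 shoot and 6.05, 9.12, 12.4 and 6.42 in AGR3/8 shoot. The part of this ratio in the AMT1 difference was not tested.

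**Figure D2:**
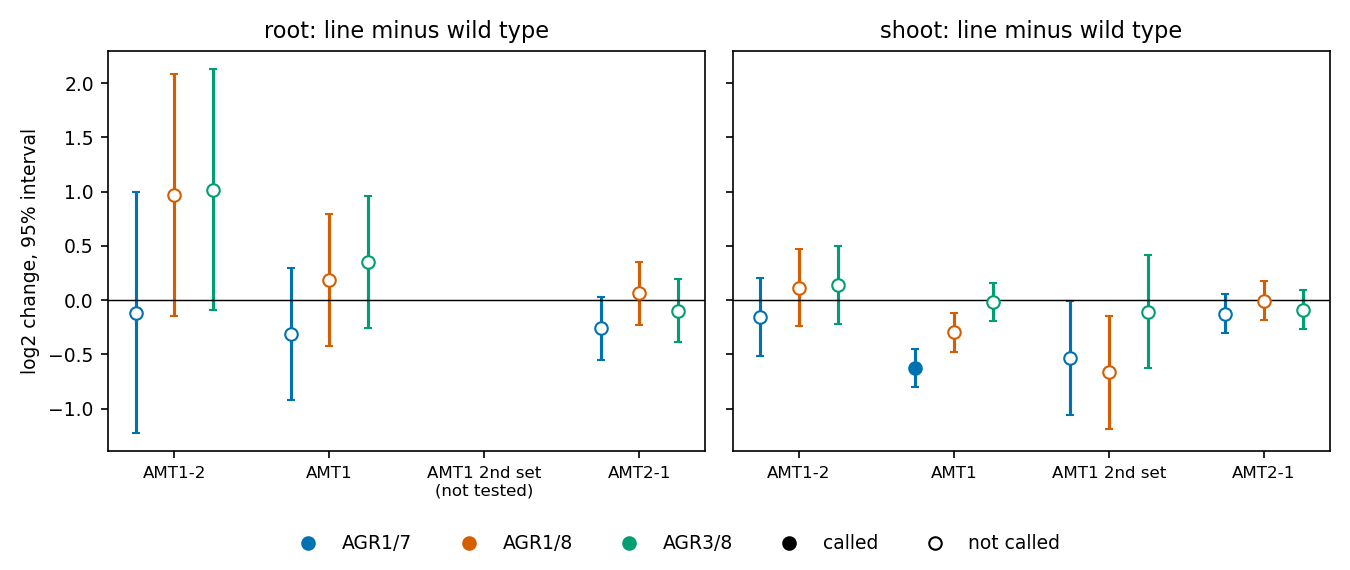
Log2 difference of each line from wild type (y axis) with its 95% interval for each probe set, in root (left) and shoot (right). Filled points passed limma's test after adjustment over 38129 probe sets and open points did not. The single filled point is AMT1 in AGR1/7 shoot at -0.63, and the widest intervals are those of AMT1-2 in root.

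In root, AMT1 read 693.5, 1179.6, 923.9 and 1195.4 in wild type. AGR1/7 gave 325.0, 1025.2, 1084.2 and 1026.7, and AGR1/8 gave 1070.3, 1294.8, 1027.7 and 1067.4. AGR3/8 gave 1357.9, 1134.4, 1143.6 and 1362.5. The low readings were again wild type replicate 1 and AGR1/7 replicate 1, and every line overlapped wild type. The differences from wild type were -0.31 in AGR1/7, 0.18 in AGR1/8 and 0.35 in AGR3/8, and none passed the test (adjusted p = 0.588, 0.810 and 0.491). The transgenic mean was 0.073 (95% interval -0.42 to 0.57, adjusted p = 0.891), and it was -0.088 without wild type replicate 1. Without that array the lines stood at -0.47, 0.023 and 0.19 in the same order. AGR1/7 turned to 0.098 without its own replicate 1 and was -0.063 without both, and none of these was called. The F test among lines gave an adjusted p of 0.387.

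The second AMT1 probe set was dim in both tissues, with readings near or below the added constant of 16. In shoot it read 15.3, 30.8, 35.5 and 33.5 in wild type, and AGR1/7 ran from 4.3 to 30.9. AGR1/8 gave 12.4, 3.0, 24.5 and 11.1, and AGR3/8 gave 32.5, 23.1, 20.6 and 24.1. All 3 lines overlapped wild type.

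The shoot differences of the second set were -0.53 in AGR1/7, -0.66 in AGR1/8 and -0.11 in AGR3/8. None passed the test (adjusted p = 0.385, 0.220 and 0.901). In root it was among the dimmest 33.3% of probe sets and was not fitted there. Its root readings ran from 0.8 to 9.2 in wild type and from 0.8 to 3.9 in the 12 transgenic arrays. Exact two-sided permutation tests of each line against wild type in root gave p = 0.23, 1 and 0.83, where 0.0286 is the smallest p that 4 against 4 arrays allow.

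Between tissues, the second AMT1 set passed the test as lower in root in each genotype (adjusted p from 3.9e-06 to 0.0162). All its root readings lay below the added constant, which therefore sets the size of the difference, and no tissue pattern of AMT1 is read from this set. In AGR1/8 it was not called without shoot replicate 3 (adjusted p = 0.107). Which transcript form each set reads was not tested.

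AMT2-1 was higher in shoot than in root in all 4 genotypes, by a modest amount. The wild type shoot read 461.5, 484.1, 467.7 and 473.8, and the wild type root 226.5, 350.2, 398.1 and 329.4. The ratio of shoot to root means was 1.45 in wild type, 1.64 in AGR1/7, 1.41 in AGR1/8 and 1.48 in AGR3/8. No root array of a genotype reached its lowest shoot array. Root minus shoot was -0.54, -0.68, -0.47 and -0.55 log2 in that order, and all passed the test (adjusted p from 5.3e-06 to 0.00058). Without both low root arrays the difference was -0.38 in wild type and -0.65 in AGR1/7, and both passed.

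In root the transgenic arrays of AMT2-1 read 252.1, 258.2, 249.9 and 299.8 in AGR1/7, 332.3, 365.7, 339.4 and 302.7 in AGR1/8, and 301.8, 326.1, 310.7 and 256.5 in AGR3/8. AGR1/7 was the lowest line, but wild type replicate 1, at 226.5, was lower than any of its arrays. Wild type replicates 2, 3 and 4, at 350.2, 398.1 and 329.4, were above every AGR1/7 array. AGR1/7 differed from wild type by -0.26 (95% interval -0.55 to 0.029, adjusted p = 0.301), AGR1/8 by 0.061 and AGR3/8 by -0.098 (adjusted p = 0.874 and 0.709). The transgenic mean was -0.099 (adjusted p = 0.640) and the F test among lines gave 0.396. Without wild type replicate 1 AGR1/7 stood at -0.42 (adjusted p = 0.0541), also not called. Without both low arrays AGR1/7 stood at -0.40 (adjusted p = 0.0789), AGR1/8 turned to -0.095, and the transgenic mean was -0.25 (adjusted p = 0.123).

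In shoot AMT2-1 gave 403.6, 501.0, 384.8 and 445.6 in AGR1/7, 464.5, 424.3, 509.1 and 486.5 in AGR1/8, and 411.4, 445.1, 452.8 and 464.7 in AGR3/8. The narrow wild type range, 461.5 to 484.1, was overlapped by every line. The differences were -0.12, -0.0048 and -0.087 log2, with intervals that reach from -0.30 to 0.17 over the 3 lines (adjusted p = 0.617, 0.993 and 0.704).

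Counted over the probe sets of the 3 genes, 0 of the 3 tested in root passed against wild type in any line, where 2.47% of all probe sets passed in AGR1/7, 2.48% in AGR1/8, 5.41% in AGR3/8 and 5.32% for the transgenic mean. None of the 3 passed the F test among lines in root, against 2.99% of all. In shoot 1 of 4, the main set of AMT1, passed for AGR1/7, for the transgenic mean and for the F test, against 1.6%, 1.57% and 2.26% of all probe sets. The median change of the members tested was -0.26, 0.18 and 0.35 log2 in root of AGR1/7, AGR1/8 and AGR3/8, beside 0.026, 0.012 and 0.047 over all probe sets. In shoot it was -0.34, -0.15 and -0.053, beside 0.023, -0.0072 and -0.018. All comparisons with wild type in a tissue share the same 4 wild type arrays.

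The transgenic mean's difference from wild type was also set between the tissues, root minus shoot. It was not called for any of the 4 probe sets, where 1.95% of all probe sets were. It was 0.59 log2 for AMT1-2 (95% interval -0.36 to 1.54, adjusted p = 0.550), 0.39 for AMT1 (-0.13 to 0.90, adjusted p = 0.452), 0.34 for the second AMT1 set and -0.027 for AMT2-1. For AMT1 it rose to 0.52 and passed (adjusted p = 0.0354) without root AGR1/7 replicate 1. Without both low root arrays it was 0.36 (adjusted p = 0.110).

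The spread among replicates differed between these genes and tissues. In root the within-group SD of AMT1-2 was 0.85 log2, above that of 99.3% of the probe sets tested, and that of AMT1 was 0.46, above 93.1%. AMT2-1 had 0.20, near the median of 0.23 over all probe sets. For AMT1-2 and AMT1 much of this spread lay in the groups that hold the low root arrays. In wild type root the SD was 1.31 for AMT1-2 and 0.36 for AMT1. In root of the line with a low array of its own it was 1.07 and 0.82. In root of the lines without a low array it was 0.060 to 0.26 for AMT1-2 and 0.15 in each for AMT1. The within-group SD without the low arrays was not computed. In shoot the SD was 0.10 for AMT1 and 0.11 for AMT2-1, among the smallest 5.63% of all probe sets, and 0.23 for AMT1-2.

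In root, AMT1 and AMT1-2 moved together from array to array. Over the 16 root arrays Pearson's r was 0.884 and Spearman's rho 0.868 on the log2 scale. Permutation gave p = 1e-05, the smallest that 100000 permutations can give, for r, and 2e-05 for rho (adjusted over the 6 relations computed, 6e-05 and 0.00012). Without the 2 low arrays r was 0.784 and rho 0.807, and r of the deviations from group means over the 16 arrays was 0.880. In shoot, r between them was 0.383 over 16 arrays (permutation p = 0.143, adjusted 0.214).

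**Figure D3:**
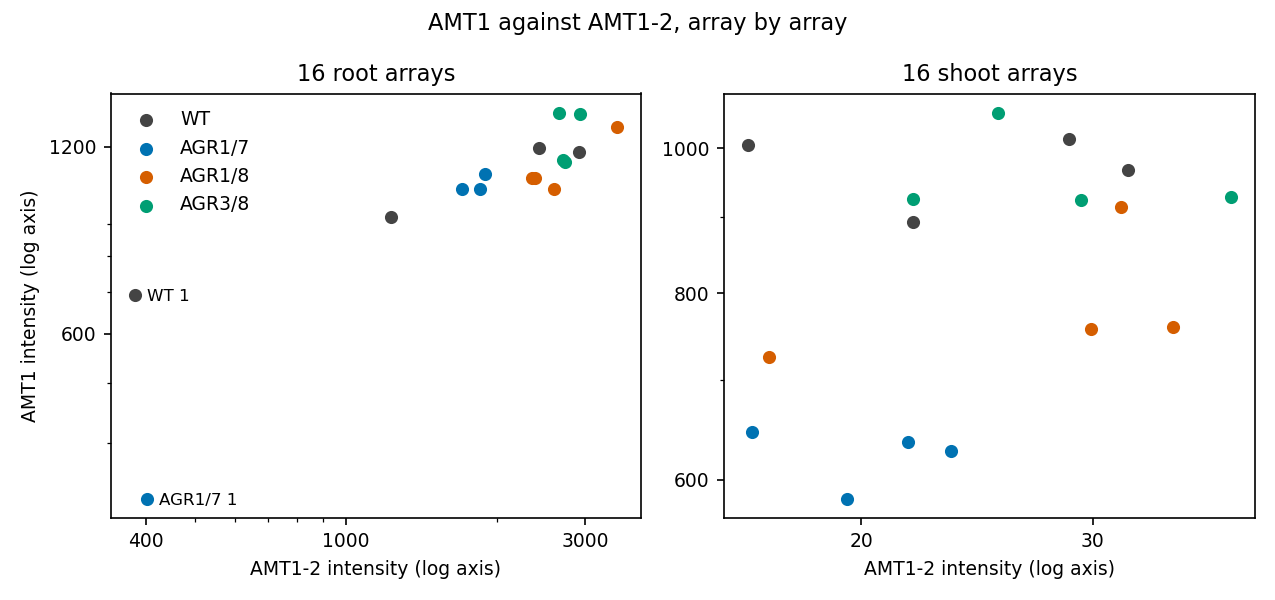
AMT1 intensity (y axis, log) against AMT1-2 intensity (x axis, log) on the 16 root arrays (left) and the 16 shoot arrays (right), coloured by genotype. In root the points rise together from the labelled low arrays, WT 1 and AGR1/7 1, and in shoot the AGR1/7 points lie lowest in AMT1 with no such rise.

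AMT2-1 did not share this. Its r with AMT1-2 in root was 0.553 (permutation p = 0.0244, adjusted 0.0733) and fell to 0.041 without the 2 low arrays, so that relation rested on them. With AMT1 its r was 0.403, and -0.20 without them. In shoot its r was 0.091 with AMT1-2 and 0.30 with AMT1. The AMT1 and AMT1-2 genes are relatives, and whether their probe sets bind each other's transcripts was not tested.

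Among 2301 named genes, those whose root values were most like AMT1-2 over the 16 root arrays were DRB4, a double-stranded RNA binding protein (r = 0.951), DUR3, a urea transporter (0.943), and RDR2, an RNA-dependent RNA polymerase (0.925). Without the 2 low arrays these were 0.754, 0.789 and 0.684. In shoot they were -0.13, -0.14 and 0.067. DUR3 read 19.0 on root WT replicate 1 and 19.8 on root AGR1/7 replicate 1, and between 46.9 and 107.4 on the other root arrays, so the same 2 arrays were its lowest.

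The genes most like AMT1 in root were FACE-1 (r = 0.940), the potassium channel gene AKT1 (0.910) and PDIL1-4, of the protein disulfide isomerase family (0.900). Without the 2 low arrays r was 0.629 for FACE-1 and 0.779 for AKT1 but 0.077 for PDIL1-4. For AMT2-1 they were GT43E, a glycosyltransferase gene (0.804), the potassium transporter gene HAK1 (0.787) and, as the third, a small heat shock protein gene (0.781), with 0.793, 0.678 and 0.695 without those arrays. These values are descriptions over arrays that share the tissue and the 2 low arrays, and the names were picked for the highest r.

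The other members of the transporter family on the array were 6 probe sets of 5 genes, AMT2-2, AMT2-3, AMT3-1 (2 sets), AMT3-2 and AMT3-3. None of the 6 passed against wild type in any line or tissue, the transgenic mean included. The share of all probe sets called ran from 0.868% in AGR3/8 shoot to 5.41% in AGR3/8 root, so nothing is read from this count. The median change of the 6 in root was 0.031, -0.076 and -0.042 log2 in AGR1/7, AGR1/8 and AGR3/8. The differences nearest to a call were AMT3-2 in AGR3/8 root (-0.75 ± 0.23, SE, adjusted p = 0.0652) and AMT3-3 in AGR1/8 shoot (-0.66 ± 0.17, adjusted p = 0.0639). For AMT3-3 the lines differed in shoot by the F test (adjusted p = 0.0458), with means of 121.8 ± 22.4 in AGR1/7, 65.2 ± 24.2 in AGR1/8 and 95.6 ± 18.8 in AGR3/8 beside 108.7 in wild type. Without both low root arrays, a choice made after the data were seen, AMT3-2 in AGR3/8 root was called (-0.66 ± 0.17, adjusted p = 0.0254), the only call among the 6 against wild type in root in that fit, and it also passed the F test among lines (adjusted p = 0.00302).

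Between tissues, AMT2-3 was higher in wild type root by 1.08 log2 (adjusted p = 3.5e-05) and AMT2-2 by 0.60 (adjusted p = 0.00771), while AMT3-3 was lower in root by -1.64 (adjusted p = 3.3e-10). AMT3-2 and both AMT3-1 sets were not called in wild type. In wild type, AMT2-1 and AMT3-3 were thus called higher in shoot, and AMT1-2, AMT2-2 and AMT2-3 higher in root, where 59.2% of all probe sets were called in either direction.

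**Figure D4:**
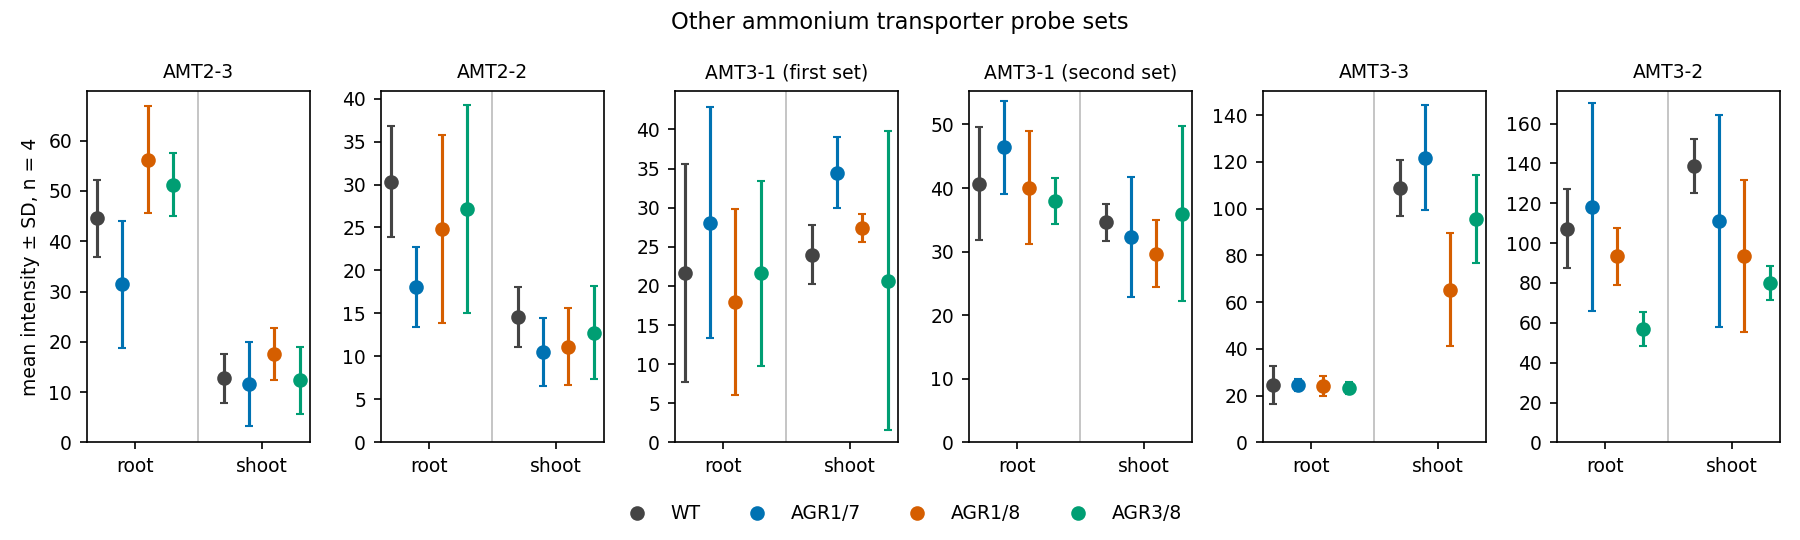
Mean intensity ± SD (n = 4 arrays per group) of the 6 probe sets of the other ammonium transporter genes, in root (left side of each panel) and shoot (right side), with linear axes starting at 0. AMT3-3 is higher in shoot in all 4 genotypes, with its lowest shoot mean in AGR1/8 at 65.2, and AMT2-3 is higher in root.

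The genes that assimilate ammonium were read from 15 probe sets, 13 of them tested in root and 14 in shoot. The list was matched by symbol or synonym and thereby also took in AS2, a synonym match of LBD6, and GL2, of the transcription factor gene GRF4. In root 1 of 13 was called in AGR1/7, 0 in AGR1/8 and 1 in AGR3/8, against 2.47%, 2.48% and 5.41% of all probe sets. The called probe set was that of GLN1-1, a cytosolic glutamine synthetase. Its root mean was 2050.2 ± 334.3 in wild type, 1159.2 ± 292.7 in AGR1/7, 1431.2 ± 175.5 in AGR1/8 and 1026.5 ± 51.2 in AGR3/8 (SD, n = 4). Every array of the 3 lines lay below the wild type range, which started at 1689.9.

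GLN1-1 fell by 0.84 ± 0.16 log2 in AGR1/7 root (SE, adjusted p = 0.0178) and by 0.97 ± 0.16 in AGR3/8 root (adjusted p = 0.00566). AGR1/8 stood at -0.51 (adjusted p = 0.136) and the transgenic mean at -0.77 (adjusted p = 0.00515). Without both low root arrays all 3 lines were called, at -0.55 in AGR1/7, -0.41 in AGR1/8 and -0.88 in AGR3/8 (adjusted p = 0.0193, 0.03 and 0.00021), and a probe set of GDH2, a glutamate dehydrogenase gene, was called lower in AGR3/8 (-0.69, adjusted p = 0.0472). In that fit both passed the F test among lines (adjusted p = 0.0138 for GLN1-1 and 0.0211 for this GDH2 set). In shoot 0 of 14 assimilation probe sets passed against wild type in any line, against 1.6%, 1.82% and 0.868% of all in AGR1/7, AGR1/8 and AGR3/8. By the F test the lines differed there on 2 of the 3 probe sets of Fd-GOGAT, a ferredoxin-dependent glutamate synthase (adjusted p = 0.0479 and 0.0401). Of all probe sets, 2.26% passed that F test.

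Nitrate and urea transport was read from 4 probe sets, those of the nitrate transporters NRT2.2 and NRT2.3, their partner protein NAR2.2, and DUR3. None of the 4 passed against wild type in root, where 2.47% to 5.41% of all probe sets did by line. None of the 3 tested in shoot passed, where that share was 0.868% to 1.82%. Between tissues 3 of 4 were higher in root in each genotype, where 58.2% to 59.2% of all probe sets were called in either direction, so nothing is read from that count. In wild type NRT2.3 stood at 2.36, DUR3 at 1.32 and NRT2.2 at 1.04 log2. Of the planned regulators, only the protein kinase gene CIPK23 had probe sets. Neither of its 2 sets passed against wild type, beside the same shares of all probe sets. The transgenic mean of CIPK23 in root was 0.65 ± 0.22 (SE, adjusted p = 0.0872) on one and 0.15 ± 0.071 (adjusted p = 0.222) on the other, where 5.32% of all probe sets passed.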

How the data were processed

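Biotin-labelled RNA of each sample was hybridized to a 1-colour rice array, per the labels. Each value is an intensity on a linear scale that the authors deposited, and equal trimmed means show that the arrays had been scaled to a common level. Which software made the values is not stated in these sources. Precision is limited by the number of arrays, and a change in the total RNA of a cell is lost in scaling per array.

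The table holds 57381 probe sets, and 187 of them, controls, were not used. Deposited intensities were transformed as log2(intensity + 16), the dimmest 33.3% of probe sets in each fit were left out, and 38129 were tested. limma 3.58.1 in R 4.3.3 (lmFit, and eBayes with an intensity trend) was fitted to the 16 arrays of each tissue, for each line, the mean of the 3 lines and the F test among lines, and to all 32 arrays for root minus shoot. Adjustment was by Benjamini-Hochberg over all probe sets tested, with calls under 0.05. The scripts were checked on simulated data. Permutation tests used SciPy 1.17.1 and Python 3.11.15. P-values measure the spread between the replicates deposited.

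Genes were named by a rule: all probe sets of the 3 transporters, every other AMT gene, the called members of each pathway list or otherwise its brightest, and the 3 named genes most correlated with each transporter over root arrays. The members and lists were chosen with earlier results of these data known. The annotation gave 22436 probe sets a single gene and 95 several.

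Replicate numbers were not taken to pair arrays, and the main fit of root minus shoot was unpaired. Whether a root and a shoot array of the same number share plants was not tested. Alternatives tried were an added constant of 1, no filter, quantile normalization, median centring, array weights, a replicate block, a single fit of all arrays, the line as a random unit, and leaving out each array. A fit without both low root arrays, for the transporters and the pathway lists, and the alternatives for the F test, were chosen after seeing the data.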

Additional observations from a re-analysis of the deposited data

Results flagged for a closer look

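In 4 of the 32 groups of 4 arrays formed by the 4 probe sets, 1 array lay far from the other 3, by a gap that chance exceeds in about 1 group in 20. AMT1-2 read 401.2 on root AGR1/7 replicate 1, while the other 3 arrays of that group read 1708.0 to 1894.4. On the same array AMT1 read 325.0, with the other 3 at 1025.2 to 1084.2. AMT1 in shoot AGR3/8 replicate 2 read 1056.4, with the other 3 between 923.3 and 927.7. The second AMT1 probe set read 9.2 on root WT replicate 4, with the other 3 between 0.8 and 1.5.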

How the results depend on the processing

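For 48 differences of the 4 probe sets and the F test of AMT1 in shoot, 49 results in all, 901 values were computed under other settings. Of these, 859 kept the direction and the side of the threshold, 24 changed sign, 10 became called and 8 lost a call. None of the values that changed sign was called. The cause was not tested for any of the changes below. In every setting run, AMT1-2 in root stayed without a call against wild type, and its root minus shoot difference was called in each genotype.

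The AMT1 calls in shoot were lost in the single fit of all 32 arrays (transgenic mean -0.31, adjusted p = 0.482; AGR1/7 -0.63, adjusted p = 0.176; F test among lines, adjusted p = 0.236), and with the line as a random unit (transgenic mean -0.31, adjusted p = 0.527). Leaving out 1 array, the transgenic mean in shoot ran from -0.35 to -0.29. Quantile normalization made AMT1 called in AGR1/8 shoot (-0.32) and its root minus shoot difference called in AGR1/8 (0.57). With the replicate number as a block that difference was 0.49 (adjusted p = 0.0422), and the block changed no other call of these probe sets. The labels do not say that a number marks a shared batch. The deviations of same-numbered root arrays correlated over 0.1 in 9 of 24 pairs, beside 15 of 72 pairs of unlike number, with a range from -0.172 to 0.420. All 4 same-numbered pairs of AGR1/8 and AGR3/8 were over 0.1 (0.125 to 0.188), while no line had all 4 of its pairs with wild type over 0.1. Pairs of unlike number of these lines were as high for replicates 1 with 4 (0.139), 4 with 1 (0.119), 2 with 3 (0.142) and 3 with 2 (0.157). Their remaining pairs ran from -0.168 to -0.116, so these correlations did not follow the replicate number alone. In shoot 1 of 24 same-numbered pairs was over 0.1. Array weights made AMT1 root minus shoot called in AGR1/7 (0.65), AGR1/8 (0.48) and AGR3/8 (0.37). They also turned AMT2-1 in AGR1/8 to -0.030 in root and 0.0074 in shoot, and the AMT1-2 transgenic mean in shoot to -0.010. Median centring turned AMT2-1 in AGR1/8 shoot to 0.011. Without both low root arrays, AMT2-1 in AGR1/8 root turned to -0.095 and AMT1 root minus shoot in AGR1/7 was called at 0.73.

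Leaving out each array in turn gave these ranges in root: AMT1 transgenic mean -0.088 to 0.21, AMT1 in AGR1/7 -0.47 to 0.098, and AMT1-2 in AGR1/7 -0.71 to 0.42. For AMT2-1 in root the ranges were -0.26 to 0.0020 (transgenic mean), -0.095 to 0.16 (AGR1/8) and -0.25 to 0.0029 (AGR3/8). In shoot they were -0.072 to 0.12 for the AMT1-2 transgenic mean, -0.065 to 0.0039 for AMT1 in AGR3/8 and -0.042 to 0.043 for AMT2-1 in AGR1/8. Root minus shoot of AMT1 ran from -0.087 to 0.17 in WT, 0.17 to 0.73 in AGR1/7 and 0.42 to 0.56 in AGR1/8, and that of its second set in AGR1/8 from -0.75 to -0.39. The transgenic effect in root minus that in shoot ran from -0.0062 to 0.96 for AMT1-2, 0.23 to 0.52 for AMT1 and -0.18 to 0.074 for AMT2-1.

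With an added constant of 1 the second AMT1 probe set fell out of the fit of all arrays, so it has no value there. The number of probe sets called for the transgenic mean was 2027 in root and 599 in shoot. It was 1268 and 385 with no filter, 137 and 115 with the line as a random unit, 3881 in root in the single fit, and 997 in shoot with array weights. Leaving out 1 array it lay between 782 and 3022 for root and between 224 and 1018 for shoot. Over the settings other than leaving out arrays, the counts ran from 560 to 2569 (AGR1/7), 780 to 1549 (AGR1/8) and 1279 to 4061 (AGR3/8) in root, where they were 940, 944 and 2064. In shoot they ran from 445 to 1099, 448 to 1062 and 156 to 882, where they were 609, 693 and 331.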
